A study of Mus musculus with 11 samples.

Results

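Genes of cholesterol and fatty acid synthesis were followed in naive CD8 T cells and in memory CD8 T cells from mice given an acute viral infection. The set holds 33 genes, chosen by name: 17 enzymes of sterol synthesis, 8 enzymes of fatty acid synthesis and desaturation, 5 components of the SREBP control system, and 3 genes of sterol transport and efflux. All 33 were found by symbol among the 52636 genes of the count table. Of these, 32 passed the filter on low counts and were tested together with the other genes, 13735 in all. The desaturase gene Fads2 did not pass, with a level of 0 to 0.298 CPM (counts relative to the scaled library total) in a library.

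All cells were sorted from spleens of C57BL/6 mice. The naive group (3 libraries) held CD44lo CD8 T cells, which have not responded to antigen, and its labels carry a time entry of 6 to 8 weeks whose meaning is not stated. Both memory groups came from mice given 200000 pfu of the Armstrong strain of lymphocytic choriomeningitis virus (LCMV), with cells taken in week 6, 42 to 45 days later. The memory cells bound a class I tetramer with NP396, a peptide of the viral nucleoprotein. They were divided into CD45RBhi (4 libraries) and CD45RBlo (4 libraries) cells by surface CD45RB, a splice form of the phosphatase CD45. The labels of the naive libraries repeat the text on infection, so whether the naive mice were infected cannot be told from them. The labels do not say that replicates came from separate animals. The p-values therefore measure only the spread between these libraries, which may be technical.

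Cells make cholesterol from acetyl-CoA through mevalonate, isoprenoids, squalene and lanosterol. When membrane sterol is low, SCAP carries the SREBP precursors to the Golgi, where they are cut, and the released factors switch on genes of sterol synthesis (mainly SREBP2) and fatty acid synthesis (mainly SREBP1). INSIG proteins hold SCAP back when sterol is plentiful, and LXR receptors switch on the efflux pumps. T cells raise both synthesis routes when they are activated and begin to divide.

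In both memory groups most of the changed members were lower than in naive cells. The largest decrease was in Abca1, a cholesterol efflux pump. Hmgcs1 and Mvk, early enzymes of the sterol pathway, and Srebf2, the gene of its main transcription factor, fell by more than 1 log2 unit in each. So did the fatty acid elongase gene Elovl6 and Fdps, whose level is uncertain because a second gene shares 26.7% of its exon length. Against naive cells, 15 of 32 members fell and 3 rose in CD45RBhi memory, while 19.1% of all genes tested fell and 22.3% rose. In CD45RBlo memory 15 members fell and 3 rose, against 19.8% and 22.4% of all genes. In each comparison those that rose were Acat2, Ebp and Acly. Those that fell in each were Hmgcs1, Mvk, Mvd, Idi1, Fdps, Sqle, Cyp51, Msmo1, Sc5d, Dhcr7, Elovl6, Srebf1, Srebf2, Insig1 and Abca1. These calls come from edgeR's quasi-likelihood test with Benjamini-Hochberg adjustment over all genes. Both comparisons use the same 3 naive libraries, so the second does not repeat the first independently. The median log2 fold change of the members was -0.41 in CD45RBhi and -0.40 in CD45RBlo, where the median over all genes was -0.01 in each. In bulk RNA, fewer cells that express a gene and less of its RNA per cell cannot be told apart.

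**Figure D1:**
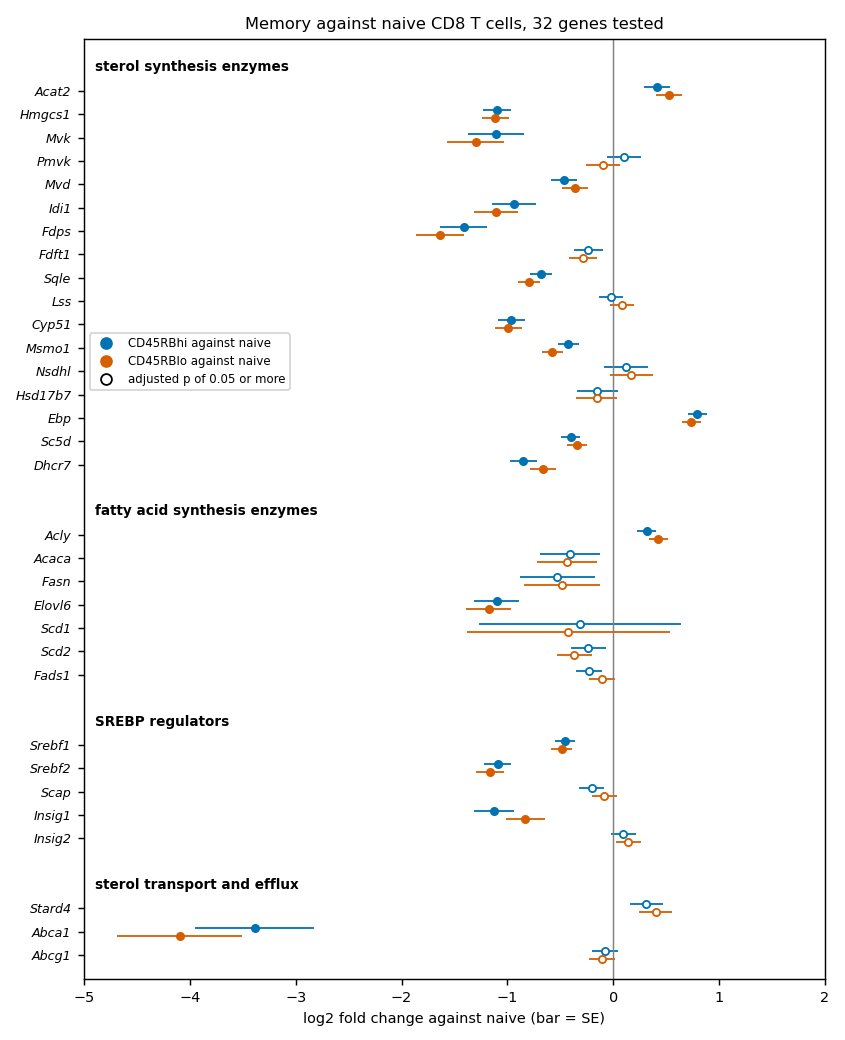
Log2 fold change of each of the 32 tested members in CD45RBhi (blue) and CD45RBlo (orange) memory against naive cells, ordered by role. Points are edgeR estimates and bars the SE. Open points did not pass at an adjusted p of 0.05. Most filled points lie left of 0, with Abca1 farthest at -3.39 and -4.10, and Acat2, Ebp and Acly lie to the right.

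Promoter sequence is shown for 4 genes that carry the pattern: Hmgcs1, Srebf2 and Insig1, which fell together, and Ebp, which rose. The sequences are RefSeq promoter windows on build GRCm38.p6, 5′ to 3′ on the gene's own strand, up to the transcription start or, for Srebf2 and Insig1, to the first annotated exon base. Capitals mark matches on either strand, and a match on the other strand reads as the reverse complement. The letters searched were TCACNCCAC for the core of the sterol regulatory element. For the box bound by NF-Y they were CCAAT. The GC box was searched as GGGCGG. Hmgcs1 lies at chr13:119690101-119690350 on the plus strand, Srebf2 at chr15:82147019-82147180 plus, Insig1 at chr5:28071162-28071362 plus, and Ebp at chrX:8193513-8193762 minus.
Hmgcs1: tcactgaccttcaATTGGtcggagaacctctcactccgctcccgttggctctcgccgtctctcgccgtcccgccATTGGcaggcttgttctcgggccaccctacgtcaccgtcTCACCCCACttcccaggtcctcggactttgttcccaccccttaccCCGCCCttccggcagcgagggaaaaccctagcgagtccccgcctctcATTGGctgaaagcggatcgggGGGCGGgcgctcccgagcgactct
Srebf2: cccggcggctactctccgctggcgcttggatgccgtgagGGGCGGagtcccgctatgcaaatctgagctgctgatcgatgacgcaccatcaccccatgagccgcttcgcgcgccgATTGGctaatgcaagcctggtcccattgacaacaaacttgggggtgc
Insig1: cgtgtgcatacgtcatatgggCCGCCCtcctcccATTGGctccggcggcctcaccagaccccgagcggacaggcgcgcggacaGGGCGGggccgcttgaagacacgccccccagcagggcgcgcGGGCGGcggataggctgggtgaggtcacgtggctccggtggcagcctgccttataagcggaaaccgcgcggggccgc
Ebp: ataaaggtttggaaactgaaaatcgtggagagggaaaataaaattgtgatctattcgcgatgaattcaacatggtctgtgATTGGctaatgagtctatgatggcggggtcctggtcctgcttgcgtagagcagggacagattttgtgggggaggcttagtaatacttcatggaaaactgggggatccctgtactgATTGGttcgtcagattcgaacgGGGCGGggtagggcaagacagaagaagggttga

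RefSeq held a window, from 250 bases before to 50 after the start, for 25 of the 33 members. The sterol regulatory element core was found in 1 of these 25, Hmgcs1, and in 1.44% of all 27025 genes with a window. It lay 137 to 129 bases before the start of Hmgcs1. The NF-Y box was present in 19 of 25 members (76%) and 41.1% of all genes, and in 42.9% of the 9093 genes tested that had a window. The GC box was present in 21 of 25 (84%), against 38.2% of all genes and 68.5% of those tested. Among members lower in CD45RBhi memory 11 of 13 windows held an NF-Y box, among those higher 2 of 3, and among those not called 6 of 8. A letter match is a description and not a site, and the motif searches say nothing about which factor was bound.

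The sterol enzymes were followed along the pathway, starting with the genes that commit acetyl-CoA to mevalonate. Acat2 encodes the cytosolic thiolase that makes acetoacetyl-CoA. It averaged 33.3 ± 2.68 CPM in naive cells, 44.4 ± 4.41 in CD45RBhi and 48.0 ± 6.37 in CD45RBlo libraries (mean ± SD over 3, 4 and 4 libraries, as in all values that follow). It rose by 0.42 ± 0.123 and 0.53 ± 0.124 log2 units (± SE, adjusted p = 0.0158 and 0.00385). The near copy Acat3 averaged at most 0.255 CPM in a group. The CD45RBhi call of Acat2 was lost without naive replicate 3 (0.36) and with scaling by library size alone (0.27).

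Hmgcs1 (ENSMUSG00000093930, chromosome 13, 119690379 to 119708260 on GRCm38) encodes HMG-CoA synthase. Its levels were 70.7, 84.3 and 80.6 CPM in the naive libraries, 36.0, 27.9, 42.5 and 40.5 in CD45RBhi, and 34.9, 38.5, 37.0 and 35.0 in CD45RBlo. Every memory library lay below every naive library, and CD45RBhi replicate 2 was lowest. The gene fell by 1.10 ± 0.131 on the log2 scale in CD45RBhi (adjusted p = 2.32e-05) and by 1.11 ± 0.131 in CD45RBlo (1.87e-05). These are decreases of 2.14-fold and 2.16-fold. An antisense transcript covers 12.1% of the exon length of Hmgcs1, and since the strandedness of the counting is not given in the sources used here, reads of both could be mixed.

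The kinases and the decarboxylase that turn mevalonate into isopentenyl diphosphate did not move alike. Mvk, mevalonate kinase, averaged 11.8 ± 1.65 CPM in naive cells, 5.47 ± 1.6 in CD45RBhi and 4.80 ± 1.29 in CD45RBlo libraries and fell by 1.11 ± 0.265 and 1.30 ± 0.267 log2 units (adjusted p = 0.00453 and 0.00159). Pmvk, the next kinase, was at 11.6, 12.2 and 14 CPM in naive cells, 10.6, 14.5, 16 and 13.2 in CD45RBhi, and 10.3, 13.4, 12.3 and 11.3 in CD45RBlo. Its groups overlapped, and its values against naive were 0.10 and -0.10 (adjusted p = 0.64 and 0.672). Mvd, the decarboxylase, had intermediate decreases of -0.46 (adjusted p = 0.00951) and -0.36 (0.0329), from 29.1 ± 1.04 CPM to 21.1 ± 2.4 and 22.6 ± 2.76. The CD45RBlo call of Mvd was fragile, since it was lost on leaving out any naive library, CD45RBlo replicate 1, 2 or 4, or the filter on low counts, and with the replicate block (log2 fold changes from -0.38 to -0.31).

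Idi1 and Fdps, which make the isoprenoid units and farnesyl diphosphate, were low in naive cells and lower in memory. Idi1, the isomerase, stood at 9.41, 7.0 and 8.42 CPM in naive cells, 3.71, 3.56, 5.87 and 4.13 in CD45RBhi, and 4.19, 3.78, 3.47 and 3.96 in CD45RBlo libraries. No memory library reached the naive range. Its log2 fold changes were -0.94 ± 0.207 (adjusted p = 0.00271) and -1.10 ± 0.208 (0.000859). A transcript on the other strand covers 9.2% of the exon length of Idi1, so reads of both could be mixed.

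Fdps, farnesyl diphosphate synthase, is the branch point towards sterols, ubiquinone and protein prenylation, and it had the largest decrease among the enzymes. It went from 6.71, 5.70 and 7.88 CPM in naive to 2.36, 2.56, 1.89 and 3.35 in CD45RBhi and 2.21, 2.08, 2.35 and 2.03 in CD45RBlo. The log2 fold changes were -1.41 ± 0.225 (adjusted p = 0.000254) and -1.64 ± 0.227 (7.44e-05). A second gene on the same strand shares 26.7% of the exon length of Fdps, and reads in the shared part may have been left uncounted or divided. Its level is therefore uncertain. Fdft1, squalene synthase, shares 18.3% of its exon length with Ctsb on the other strand, and its values of -0.23 and -0.28 did not pass (adjusted p = 0.181 and 0.107).

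Squalene and lanosterol conversion was lower at Sqle and Cyp51 and not called at Lss between them. Sqle, squalene epoxidase, is the second control point of the pathway, and it read 49.7, 59.0 and 54.3 CPM in naive cells, 33.3, 35.4, 32.5 and 34.0 in CD45RBhi, and 29.8, 32.8, 27.6 and 35.1 in CD45RBlo libraries. The gap to the lowest naive library was wide in each memory group, and the log2 fold changes were -0.68 ± 0.104 (adjusted p = 0.000183) and -0.79 ± 0.105 (4.84e-05). Lss, which closes squalene epoxide into lanosterol, averaged 37.5 ± 4.59, 36.8 ± 3.54 and 39.8 ± 2.74 CPM, with log2 fold changes of -0.02 and 0.09 (adjusted p = 0.886 and 0.579).

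Cyp51, lanosterol demethylase, was lower in all memory libraries than in all naive ones. The naive libraries held 56.8, 58.8 and 60.6 CPM, the CD45RBhi libraries 31.3, 24.9, 31.1 and 33.4, and the CD45RBlo libraries 26.9, 35.4, 26.2 and 29.9. The log2 fold changes were -0.96 ± 0.127 (adjusted p = 5.57e-05) and -0.99 ± 0.127 (3.93e-05). Msmo1, which removes methyl groups at carbon 4, fell less. Its values were 62.3, 68.1 and 72.3 CPM in naive cells, 48.0, 53.5, 46.2 and 53.9 in CD45RBhi, and 43.6, 49.8, 41.4 and 46.7 in CD45RBlo, giving -0.42 ± 0.0991 and -0.57 ± 0.0992 (adjusted p = 0.00412 and 0.000455). Its partners in demethylation, Nsdhl (0.12 and 0.17) and Hsd17b7 (-0.15 in each), did not pass, with adjusted p from 0.536 to 0.667.

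The last steps held both the clearest increase and a decrease. Ebp, the isomerase that shifts the sterol double bond, was at 66.2, 61.7 and 61.9 CPM in naive cells, 113, 108, 102 and 116 in CD45RBhi, and 116, 111, 94.5 and 101 in CD45RBlo libraries. All 8 memory libraries were above the 3 naive libraries. Ebp rose by 0.79 ± 0.0899 (adjusted p = 1.45e-05) and 0.74 ± 0.0898 (2.39e-05), or 1.73-fold and 1.67-fold.

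Dhcr7, the reductase that yields cholesterol, had 71.8, 77.8 and 61.7 CPM in naive cells, 36.4, 32.7, 44.1 and 43.4 in CD45RBhi, and 49.6, 43.7, 40.5 and 44.2 in CD45RBlo. It fell by 0.85 ± 0.125 (adjusted p = 0.000142) and 0.66 ± 0.125 (0.000877) on the log2 scale. Sc5d, the desaturase before it, fell by 0.40 and 0.34 (adjusted p = 0.00391 and 0.0103), from 64.1 ± 5.29 CPM to 48.5 ± 2.72 and 50.6 ± 3.63. Its CD45RBlo call was lost without naive replicate 3 (-0.27).

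Across the 17 sterol enzymes, 10 fell, 2 rose and 5 did not pass in each comparison. These shares are 58.8% lower and 11.8% higher. Among all genes tested, 19.1% were lower and 22.3% higher in CD45RBhi, and 19.8% and 22.4% in CD45RBlo. The 17 enzymes summed to 669 ± 11.8 CPM in naive cells, 545.5 ± 15.3 in CD45RBhi and 545 ± 34.7 in CD45RBlo libraries. The ratio to naive was 0.815 in both. The naive sums ran from 657.5 to 681 CPM and the memory sums from 513 to 594. Changes in Ebp and Acat2 offset part of the decrease of the others in this sum. Per kilobase of exon, Ebp was the most abundant sterol enzyme message among the members in every group, at 27.4 ± 1.1 CPM per kilobase in naive, 47.5 ± 2.65 in CD45RBhi and 45.8 ± 4.16 in CD45RBlo. Hmgcs1 came next in naive cells (17.1 ± 1.53) with an SD range that overlapped that of Mvd (15.6 ± 0.559), and it stood at 7.99 ± 1.41 and 7.91 ± 0.375 in memory. Fdps was the least abundant in every group, at 1.61 ± 0.258, 0.603 ± 0.145 and 0.515 ± 0.0341. The length used is that of all annotated exons of a gene together, so this ranking depends on the annotation. In CPM, Hmgcs1 (78.5 ± 7.02), Dhcr7, Msmo1 and Sc5d averaged above Ebp (63.3 ± 2.55) in naive cells. None of the sterol enzymes did so in memory.

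**Figure D2:**
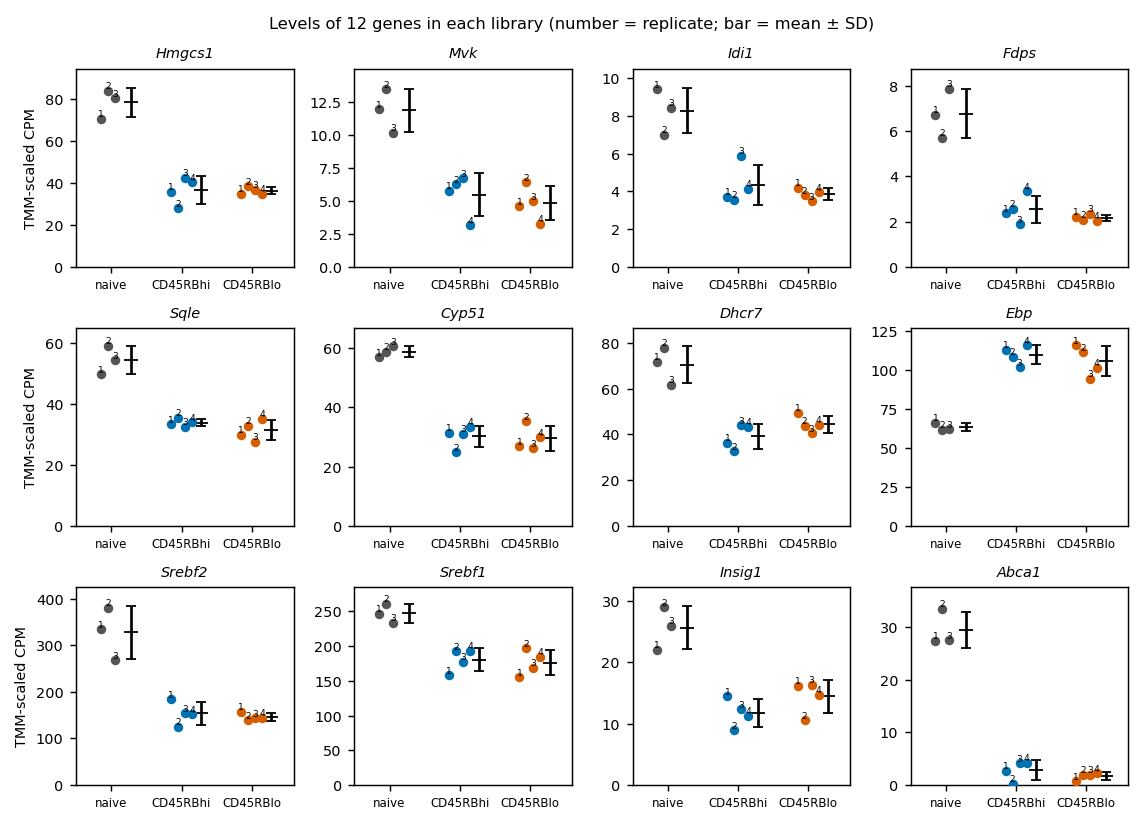
TMM-scaled CPM of 12 members in each library, on linear axes that start at 0. Each point is a library with its replicate number, grey for naive, blue for CD45RBhi and orange for CD45RBlo, and the bar beside each group is the mean ± SD. For 11 of the 12 genes all memory libraries lie below all naive libraries, and for Ebp all lie above.

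**Figure D3:**
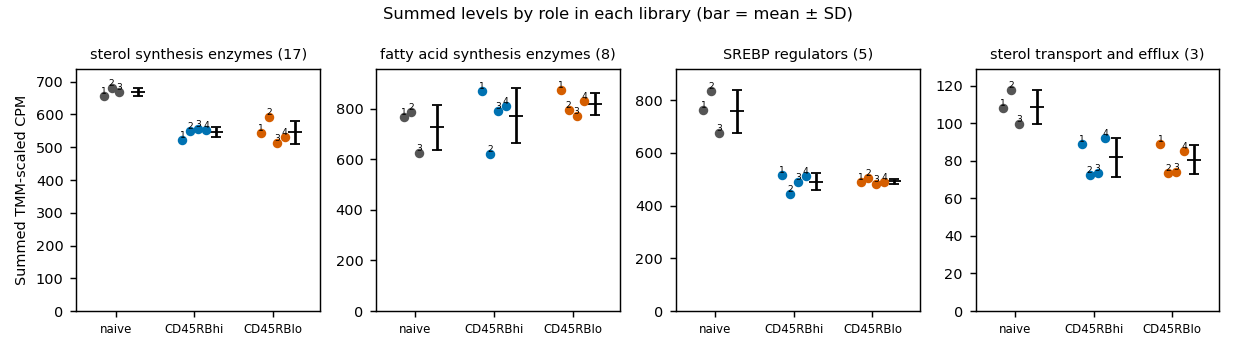
CPM summed over the members of each role in each library, with the mean ± SD of each group. The sums of sterol enzymes, of SREBP regulators and of transport and efflux genes separate naive from memory libraries. Those of fatty acid enzymes overlap. Of the 3 transport and efflux genes, Abca1 was the 1 called lower in each comparison.

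The calls among the fatty acid enzymes went both ways. Of 7 tested, 1 rose (Acly), 1 fell (Elovl6) and 5 did not pass in each comparison. That is 14.3% each way. Among all genes tested, 22.3% were higher and 19.1% lower in CD45RBhi, and 22.4% and 19.8% in CD45RBlo. With 7 genes, these shares are coarse. The estimate was above 0 for 1 of the 7 in each comparison, and their median log2 fold changes were -0.32 and -0.42. Acly, ATP-citrate lyase, supplies cytosolic acetyl-CoA to both synthesis routes and was the most abundant member in CPM and per kilobase. It was at 498, 476 and 419 CPM in naive cells, 624, 504, 599 and 585 in CD45RBhi, and 641, 635, 590.1 and 629 in CD45RBlo libraries. Every memory library was above the naive ones, CD45RBhi replicate 2 by a small margin. Acly rose by 0.32 ± 0.0864 (adjusted p = 0.0103) and 0.43 ± 0.0866 (0.00147). The CD45RBhi call was lost without naive replicate 3 (0.25) and with library size alone (0.17).

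Elovl6, which lengthens 16-carbon fatty acids, went the other way. The naive libraries had 18.4, 14.1 and 13.9 CPM, the CD45RBhi libraries 5.42, 5.47, 8.75 and 9.26, and the CD45RBlo libraries 5.95, 7.07, 6.67 and 7.65. The highest memory library was below the lowest naive one, and the log2 fold changes were -1.10 ± 0.213 (adjusted p = 0.00111) and -1.18 ± 0.214 (0.000654).

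Fasn, the fatty acid synthase, varied more between libraries than any other abundant member. It ranged from 101 to 175 CPM in naive cells, from 36.9 to 132 in CD45RBhi and from 68.0 to 133 in CD45RBlo libraries. Its log2 fold changes of -0.53 ± 0.357 and -0.48 ± 0.357 did not pass (adjusted p = 0.262 and 0.307). Acaca, acetyl-CoA carboxylase, which makes the malonyl-CoA that Fasn uses, gave -0.41 and -0.44 (adjusted p = 0.275 and 0.245).

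The desaturases were led by Scd2, the stearoyl-CoA desaturase isoform present in these cells, at 74.1 ± 14.7 CPM in naive cells, 62.9 ± 11.9 in CD45RBhi and 57.5 ± 5.44 in CD45RBlo (-0.24 and -0.37, adjusted p = 0.275 and 0.0929). Scd1 averaged 0.801, 0.648 and 0.586 CPM, close to the counting limit, and its log2 fold changes carried SEs of 0.955 and 0.958. Fads1, the delta-5 desaturase, averaged 26.9 ± 3.47, 23 ± 1.69 and 25 ± 2.48 CPM (-0.23 and -0.11, adjusted p = 0.163 and 0.528). The 8 genes summed to 725 ± 87.2 CPM in naive cells, 772 ± 107 in CD45RBhi and 817 ± 43.8 in CD45RBlo, and these groups overlapped. Acly made up most of each sum, averaging 464 ± 40.9, 578 ± 51.9 and 624 ± 23.2 CPM. It was the 1 gene of the 7 tested with an estimate above 0, so the sum hides lower estimates of the others.

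The SREBP regulators were lower at both transcription factor genes and at 1 of the 2 INSIG genes. Srebf2 (ENSMUSG00000022463, chromosome 15, 82147181 to 82205379) encodes SREBP2. It was at 335, 379.9 and 268 CPM in naive cells, 184, 125, 154 and 152 in CD45RBhi, and 157, 139, 143 and 145 in CD45RBlo libraries. The lowest naive library was above the highest memory library, CD45RBhi replicate 1. Srebf2 fell by 1.09 ± 0.131 (adjusted p = 2.34e-05) and 1.16 ± 0.131 (1.19e-05) on the log2 scale, or 2.13-fold and 2.24-fold.

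Srebf1, which encodes SREBP1, had a smaller decrease. Its levels were 247, 261 and 234 CPM in naive cells, 158, 193, 177 and 193 in CD45RBhi, and 155, 197, 169 and 184 in CD45RBlo libraries. The memory values stayed below the naive values with no overlap, and the log2 fold changes were -0.46 ± 0.0969 and -0.49 ± 0.0969 (adjusted p = 0.00215 and 0.00128). The SREBP1a and SREBP1c transcripts of this gene were not counted apart. In naive cells Srebf2 and Srebf1 were close per kilobase of exon (45.6 ± 7.86 and 43.9 ± 2.43), and in memory Srebf2 was the lower of the pair (21.4 ± 3.38 against 32 ± 2.94 in CD45RBhi, 20.3 ± 1.08 against 31.3 ± 3.22 in CD45RBlo).

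Insig1, itself a classical SREBP target, was at 22, 28.9 and 25.9 CPM in naive cells, 14.5, 8.94, 12.3 and 11.2 in CD45RBhi, and 16.2, 10.5, 16.3 and 14.7 in CD45RBlo. It fell by 1.13 ± 0.188 (adjusted p = 0.000372) and 0.83 ± 0.187 (0.00311). Insig2, the isoform that depends less on SREBP, stood at 42.3, 37.6 and 43.1 CPM in naive cells, 43.8, 39.1, 46.9 and 45.6 in CD45RBhi, and 42.3, 52.0, 48.4 and 38.6 in CD45RBlo. Its groups overlapped (0.10 and 0.14, adjusted p = 0.548 and 0.354).

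Scap, the carrier that binds sterol, read 118, 127 and 104 CPM in naive cells, 115, 80.5, 98.9 and 111 in CD45RBhi, and 119, 107, 108 and 106 in CD45RBlo. Its log2 fold changes of -0.20 and -0.08 did not pass (adjusted p = 0.192 and 0.601). A transcript on the other strand covers 13.2% of its exon length. The 5 regulators together summed to 758 ± 80.2 CPM in naive cells, 491 ± 32.3 in CD45RBhi and 492 ± 9.58 in CD45RBlo libraries, a ratio of 0.648 and 0.649.

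Among the transport and efflux genes, Abca1 had the largest change of all members. It encodes the transporter that passes cholesterol and phospholipid to apolipoproteins, and LXR receptors control it. Its levels were 27.4, 33.4 and 27.5 CPM in naive cells, 2.71, 0.217, 4.18 and 4.24 in CD45RBhi, and 0.680, 1.94, 1.98 and 2.21 in CD45RBlo libraries. CD45RBhi replicate 2 had 5 counts and CD45RBlo replicate 1 had 12, and no memory library came near the naive range. Abca1 fell by 3.39 ± 0.564 (adjusted p = 0.000426) and 4.10 ± 0.589 (0.000128) on the log2 scale, or 10.5-fold and 17.1-fold.

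Abcg1, the second LXR-controlled sterol exporter, averaged 66.0 ± 5.38, 62.7 ± 7.9 and 61.5 ± 7.44 CPM in the 3 groups (-0.07 and -0.10, adjusted p = 0.665 and 0.542). Stard4, a carrier that moves sterol between membranes, averaged 13.1 ± 1.75 CPM in naive cells, 16.2 ± 1.87 in CD45RBhi and 17.3 ± 2.7 in CD45RBlo. It gave 0.31 and 0.40 (adjusted p = 0.13 and 0.0553), and DESeq2 called it higher in CD45RBlo.

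Counted by library values alone, 16 members were lower in every CD45RBhi library than in every naive library and 3 were higher, against 23.3% and 24.1% of all genes tested. For CD45RBlo the counts were 16 and 3, against 24.3% and 25.2%. Beside the members called, Fads1 did not overlap in the first comparison and Fdft1 in the second.

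Libraries held between 18 and 23.2 M counts each. The summed CD8 T cell markers ran from 7765 to 9743 CPM. Markers of other cells moved with the naive comparisons. B cell markers summed to between 110.0 and 128 CPM in naive and between 16.6 and 38.6 in memory libraries. Of 8 tested, 6 were lower in CD45RBhi and 7 in CD45RBlo, and 1, Cd22, was higher in each comparison. Pax5 was at 0 in all memory libraries. Erythroid and platelet markers summed to 241 to 528 CPM in naive and 0.434 to 25.3 in memory (highest in CD45RBlo replicate 1), with 8 of 8 tested lower in each and Ppbp at 0 in all memory libraries. Myeloid markers summed to 33 to 57.1 CPM in naive and 30.7 to 46.3 in memory, with 5 of 7 tested lower and 2 (Itgam and Cd68) higher in each and S100a9 at 0 everywhere. Dendritic markers, a list led by Ccr7 and Itgax, which CD8 T cells also express, had 2 of 4 tested higher and 1 lower in each, with Siglech at 0 in memory. Of 3 CD4 T cell markers tested, Zbtb7b was higher and Foxp3 lower in each. Cell cycle genes were higher for 14 of 16 in CD45RBhi and 11 of 16 in CD45RBlo, and 1, Mcm7, was lower in each. Their part in the members' values was not tested.

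The rest of the pathway was read from lists of further genes, whose counts stand beside 22.3% higher and 19.1% lower among all genes tested in CD45RBhi, and 22.4% and 19.8% in CD45RBlo. Of 2 other sterol synthesis genes reported, 1 fell in each comparison. It was Tm7sf2, a sterol reductase that went from 7.38 ± 0.78 CPM in naive to 3.13 ± 0.347 and 3.05 ± 0.746 (-1.23 and -1.27, adjusted p = 0.000618 and 0.000473). Values for Lbr, the reductase of the nuclear membrane that can replace it, were 0.18 and 0.05 (adjusted p = 0.116 and 0.655).

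A list drawn loosely around SREBP processing and sterol sensing had 3 of 8 genes higher and 1 lower in CD45RBhi (37.5% and 12.5%). In CD45RBlo 3 were higher and 0 lower. With 8 genes, these shares are coarse. Erlin2 (0.36 and 0.61), Vcp (0.33 and 0.26) and Trib1 (1.55 and 1.99) rose in each. Trib1 was low throughout, at 0.193 ± 0.072 CPM per kilobase of exon in naive, 0.564 ± 0.162 in CD45RBhi and 0.766 ± 0.202 in CD45RBlo. Mbtps1, the protease that makes the first cut in SREBPs, was the 1 that fell in CD45RBhi (-0.33, adjusted p = 0.0261).

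Of the uptake, transport and storage genes, 4 of 16 were higher (25%) and 5 lower (31.2%) in CD45RBhi, and 6 higher (37.5%) and 5 lower in CD45RBlo. The share higher in CD45RBhi is near that of all genes. Soat2, an enzyme that esterifies cholesterol for storage, went from 0.457, 0.674 and 0.542 CPM in naive to 13.5, 16.4, 20 and 13.4 in CD45RBhi and 17.9, 21.6, 26 and 20.1 in CD45RBlo. It rose by 4.82 ± 0.249 and 5.26 ± 0.25 (adjusted p = 8.7e-09 and 3.82e-09). Gramd1b, which carries sterol between membranes, averaged 39.2 ± 3.38 CPM in naive cells, 86.5 ± 7.45 in CD45RBhi and 88.5 ± 9.72 in CD45RBlo libraries (1.14 and 1.17, adjusted p = 3.3e-06 and 2.34e-06). Stard3nl and Soat1 also rose in each comparison and Lrp8 and Osbpl2 in CD45RBlo, while Scarb1, Lipa and Apoe fell in each.

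Npc2, the lysosomal carrier of cholesterol, fell by 0.69 and 0.84 (adjusted p = 8.76e-06 and 1.18e-06). Gramd1a, which moves plasma membrane sterol to the endoplasmic reticulum, fell by 1.64 and 1.18 (3.37e-07 and 6.71e-06). Its group means were 534 ± 56.5 CPM in naive cells, 172 ± 11.3 in CD45RBhi and 236 ± 42.5 in CD45RBlo libraries.

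Other fatty acid synthesis genes had 7 of 25 higher and 4 lower in CD45RBhi and 7 higher and 5 lower in CD45RBlo. These shares, 28% higher in both and 16% and 20% lower, are near those of all genes. Acss2, which makes acetyl-CoA from acetate, averaged 166 ± 13.4 CPM in naive cells, 248 ± 20.1 in CD45RBhi and 272 ± 14.9 in CD45RBlo (0.58 and 0.71, adjusted p = 0.000148 and 2.45e-05). Mid1ip1, an activator of acetyl-CoA carboxylase, rose by 0.89 and 1.01, and the elongase gene Elovl1 by 0.67 and 0.59. The others that rose in each were Elovl4, Hacd2, Hacd3 and Acsl5, and those that fell were Elovl5, Hsd17b12 and Hacd1 in each and Hacd4 in CD45RBlo. Acsl3, an acyl-CoA synthetase linked to lipid droplets, had 12.8 to 15.8 CPM in naive and 0 to 0.802 in memory libraries (-5.23 ± 0.63 and -5.24 ± 0.632, adjusted p = 2.82e-05 and 2.6e-05).

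**Figure D4:**
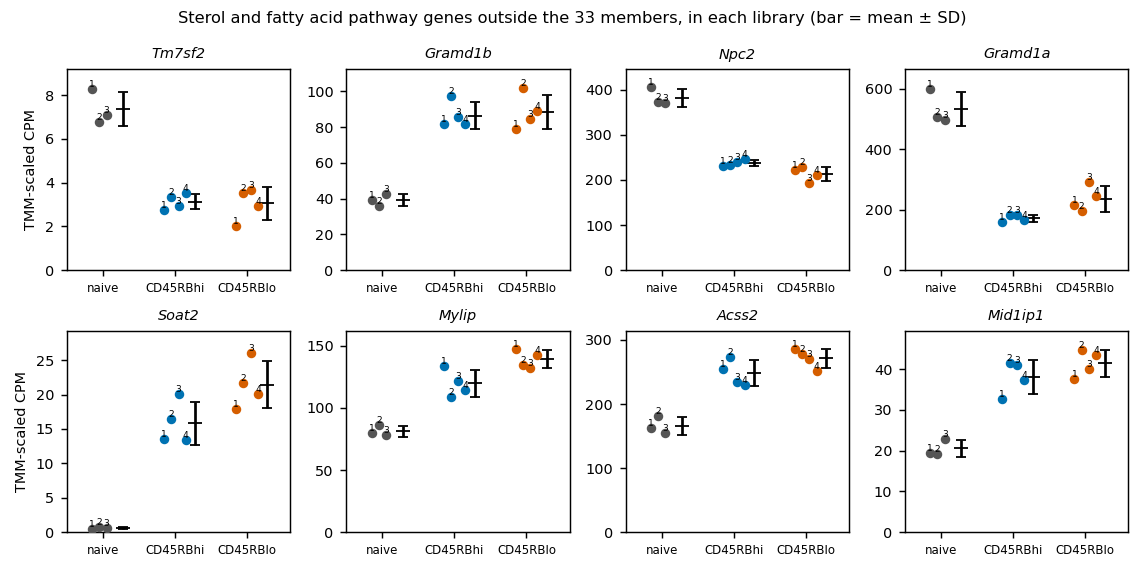
TMM-scaled CPM in each library of 8 genes from the wider pathway lists, with the mean ± SD of each group and axes that start at 0. Tm7sf2, Npc2 and Gramd1a are lower in all memory libraries than in all naive ones, and Gramd1b, Soat2, Mylip, Acss2 and Mid1ip1 are higher.

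CD45RBhi and CD45RBlo memory cells were then set against each other, to see whether the genes differ with CD45RB. None of the 32 members passed, where 0.116% of all genes tested did (0.0728% higher and 0.0437% lower in CD45RBhi). Without pairing, 0 members had an unadjusted p under 0.05, where 1240 of the 13735 genes tested did. DESeq2 called 0 members as well, where 74 of 13913 genes were higher and 71 lower in CD45RBhi. Same-numbered memory libraries deviated together. With the replicate number as a block 5.91% of 12637 genes passed (2.64% were higher in CD45RBhi and 3.27% lower) but 0 members did. In that fit 1 member had an unadjusted p under 0.05, where 2726 of the 12637 genes did. None of the members kept the groups apart by library values either, where 2.68% of all genes were higher and 2.31% lower in CD45RBhi without overlap. A p that misses the threshold does not show equal levels, so the intervals were read. Without the block the 95% interval lay within a 1.5-fold difference in either direction for 24 of 32 members, and with the block for 28. It lay within 2-fold for 30 in both fits, all but Scd1 and Abca1.

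Insig1 came closest to a difference. Its log2 ratio of CD45RBhi to CD45RBlo was -0.16, -0.23, -0.40 and -0.38 in pairs 1 to 4, so it was lower in CD45RBhi in 4 of 4 pairs. The fit gave -0.30 (95% interval -0.68 to 0.09, adjusted p = 0.659) and with the block -0.29 (-0.56 to -0.03, adjusted p = 0.181).

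Msmo1 was higher in CD45RBhi in 4 of 4 pairs, by 0.14, 0.10, 0.16 and 0.20, and gave 0.15 with the block (95% interval of 0.00 to 0.31 after rounding, adjusted p = 0.235). Pmvk was higher in 4 of 4 pairs too (0.05 to 0.38, 0.20 with the block, adjusted p = 0.392). Acly gave -0.11 with the block (-0.24 to 0.01, adjusted p = 0.284), Dhcr7 -0.19 (-0.41 to 0.03, 0.305) and Scap -0.13 (-0.29 to 0.04, 0.359).

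Abca1 had the largest estimated difference, and its interval was wide. Its ratios were 1.85, -2.69, 1.04 and 0.91 in pairs 1 to 4, and pair 2, which holds the library with 5 counts, was the 1 that went the other way. The fit gave 0.71 (-0.54 to 1.96, adjusted p = 0.763) and with the block 0.51 (-0.83 to 1.85, 0.673). With the block and without pair 2 it was called higher in CD45RBhi at 1.26 (adjusted p = 0.0264), an alternative chosen after the data were seen.

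Srebf2 and Srebf1 had narrow intervals around 0 with the block, at 0.06 (-0.08 to 0.20) and 0.03 (-0.08 to 0.15). Hmgcs1 stood at 0.00 (-0.23 to 0.24) and Cyp51 at 0.03 (-0.23 to 0.29).

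Of the other pathway lists, uptake, transport and storage had 3 of 16 lower in CD45RBhi with the block and 0 without it. Among all genes tested with the block, 3.27% were lower and 2.64% higher. The 3 lower genes were Soat2 (-0.44, adjusted p = 0.0303 with the block, 0.449 without), Gramd1a (-0.44, 0.0089 and 0.233) and the transporter gene Abca7 (-0.44, 0.0157 and 0.624). Further fatty acid genes had 2 of 25 higher with the block, beside the 2.64% of all genes. These were Hacd3, a dehydratase of fatty acid elongation (0.22, adjusted p = 0.0317, 0.414 without), and Tecr, the reductase of the same cycle (0.23, 0.0332 and 0.436).

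**Figure D5:**
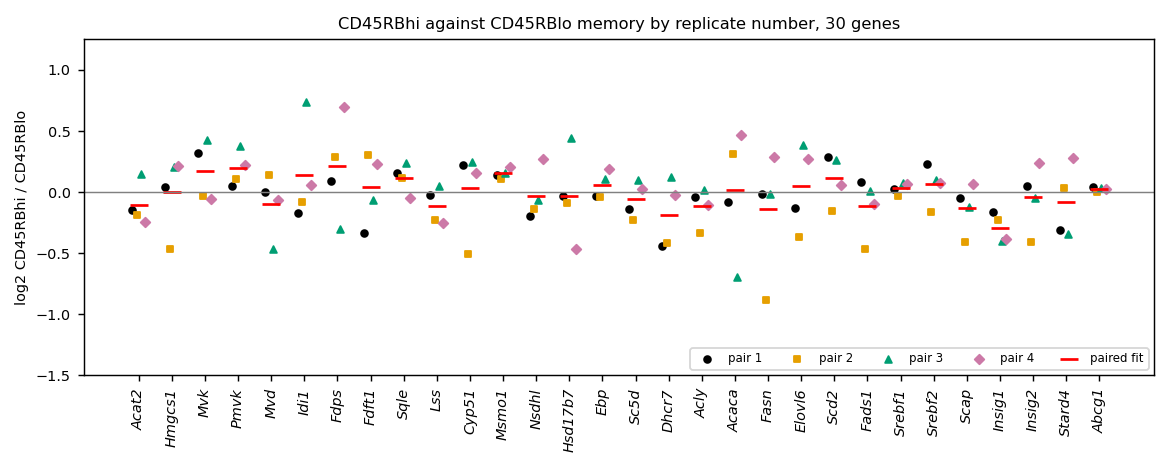
Log2 ratio of CD45RBhi to CD45RBlo memory for 30 members, by replicate number, with the estimate of the fit with the replicate block as a red bar. Scd1 and Abca1 are left off because their ratios exceed the axis. The points scatter on both sides of 0 for most genes. Insig1 lies below 0 in all 4 pairs, and Msmo1, Pmvk and Abcg1 lie above.

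Across the 8 memory libraries the widest ranges were those of Scd1 and Abca1, whose highest library was 26.6 and 19.5 times the lowest. CD45RBhi replicate 2 was the lowest of the 8 memory libraries for 11 of 32 members, more than any other library. Fasn was at 36.9 CPM there and 68.0 to 133 in the others, a 3.6-fold range from lowest to highest. Hmgcs1 (27.9), Srebf2 (125), Scap (80.5), Insig1 (8.94) and Abca1 (0.217) were also lowest in it. Nsdhl went the other way, with 37.2 CPM in CD45RBhi replicate 2 and 41.1 in CD45RBlo replicate 2, and 22.1 to 28.3 in the other memory libraries. Without CD45RBhi replicate 2, 3 members rose and 16 fell in CD45RBhi memory against naive, where 3132 of 13590 genes tested rose and 2717 fell. The steadiest members across the 8 libraries were Sc5d, Ebp and Lss, whose highest library was 1.2, 1.23 and 1.23 times the lowest.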

How the data were processed

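The deposited table holds raw counts, whole reads per Ensembl gene, for 11 libraries and was not normalized by the authors. Tools named in the submitters' processing notes are featureCounts, SAMtools and DESeq2, and GRCm38 and mm10 are named as builds. The sources used here do not give the aligner, the annotation release or the strandedness.

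Genes were filtered with filterByExpr (minimum count 10) and scaled by TMM in edgeR 4.0.16 (R 4.3.3). The 3 groups of all 11 libraries were fitted in 1 model and compared by edgeR's two-sided quasi-likelihood test, with p-values adjusted over 13735 genes by Benjamini and Hochberg and called under 0.05. Over all groups the biological coefficient of variation was 18.7%. The procedure was tested on simulated data. CPM values use TMM-scaled library sizes, and 3 counts correspond to 0.130 to 0.166 CPM. None of 15 replicate pairs was identical (chi-square per degree of freedom 10.2 to 93.3).

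The labels share replicate numbers between groups. Memory libraries of both groups with the same number deviated from their group means with correlations of 0.191 to 0.452 over genes, and those with different numbers with -0.331 to 0.0284, so the numbers were taken to pair the memory libraries, from the data and not the labels. Same-numbered pairs of a naive and a memory library gave -0.101 to 0.0565 and were not taken as pairs. The fit with the block tested 12637 genes.

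The members, the further gene lists and the tests were chosen with earlier results of these data known. Values in every library are given for the members with the smallest p (up to 10 for each comparison with naive, up to 6 between memory groups) and for the SREBP regulators. Up to 4 genes by p are named from each further list, while other names that complete a short count were chosen after their values were seen. Some genes of these lists are not reported here and are left out of the lists' counts. Alternatives were RLE scaling, library size only, DESeq2 1.42.0, other count filters, leaving out each library, the replicate block, and fits of only the groups compared. Gene positions and overlaps come from GENCODE M21 on GRCm38, promoters from RefSeq on GRCm38.p6.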

Additional observations from a re-analysis of the deposited data

Results flagged for a closer look

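Nsdhl, the sterol dehydrogenase of C4 demethylation, had 37.2 CPM in CD45RBhi replicate 2, far from the 24.7 to 26.6 CPM of the other CD45RBhi libraries. Scap had 119 CPM in CD45RBlo replicate 1, where the other CD45RBlo libraries lay between 106 and 108. These were the 2 of 64 groups of 4 memory libraries (32 members in each memory group) in which 1 library stood apart by Dixon's criterion at the 95% level. Chance alone gives about 1 in 20 such groups.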

How the results depend on the processing

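Of the 18 members called against naive, 16 in CD45RBhi and 16 in CD45RBlo kept their call under every alternative run. The exceptions were Acat2 and Acly in CD45RBhi, and Mvd and Sc5d in CD45RBlo. The count of members higher in CD45RBhi against naive was 1 with library size only and ranged from 1 to 3 when single libraries were left out. With library size only the median over all genes was -0.16 in CD45RBhi and -0.14 in CD45RBlo, where TMM gave -0.01. Then 1 member rose and 18 fell in CD45RBhi, where 2305 of all 13735 genes rose and 3717 fell. In CD45RBlo 3 members rose and 17 fell, where 2351 of all genes rose and 3601 fell. That scaling gave summed log2 ratios of -0.44 and -0.43 for sterol enzymes in CD45RBhi and CD45RBlo, and turned that of fatty acid enzymes in CD45RBhi to -0.058. It also turned Pmvk (-0.042), Nsdhl (-0.021) and Insig2 (-0.052) in CD45RBhi and Lss (-0.046) in CD45RBlo, none of them called. Leaving out single libraries changed the sign of further uncalled members. In CD45RBhi, Lss ranged from -0.094 to 0.084, Nsdhl from -0.037 to 0.18 and Scd1 from -1.15 to 0.31. In CD45RBlo, Nsdhl ranged from -0.035 to 0.28, Scd1 from -1.29 to 0.20 and Fads1 from -0.17 to 0.00917.

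Between the memory groups, genes higher and lower in CD45RBhi over the whole table numbered 10 and 6. They numbered 74 and 71 with DESeq2, 2 and 2 with only those groups fitted, and 3 to 16 and 3 to 8 when single libraries were left out. With the replicate block 334 were higher and 413 lower. No member was called in any of these. With the replicate block and without pair 2, 1 member, Abca1, was higher, and leaving out the other pairs gave 0. The replicate block changed 1 other call of a member, that of Mvd in CD45RBlo against naive. Depth limits Scd1, Fads2 and, in memory, Abca1, which rest on few reads.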

Other observations

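Of 13 further genes that use the isoprenoid products of the pathway, 2 fell in CD45RBhi and 3 in CD45RBlo memory against naive, and 0 rose. The shares that fell, 15.4% and 23.1%, are near the 19.1% and 19.8% of all genes tested. Fntb, the beta subunit of protein farnesyltransferase, went from 58.1 ± 5.2 CPM in naive cells to 11.7 ± 2.4 in CD45RBhi and 9.23 ± 0.85 in CD45RBlo (-2.31 ± 0.154 and -2.65 ± 0.156 on the log2 scale, edgeR adjusted p = 9.53e-08 and 2.82e-08). Rabggtb, a subunit of the transferase that prenylates Rab proteins, fell by 0.84 in CD45RBhi (adjusted p = 0.00518) and gave -0.41 in CD45RBlo (0.126). Pdss2 and Pdss1, which make the ubiquinone side chain, fell in CD45RBlo (-0.58 and -0.70, adjusted p = 0.0169 and 0.0449) and gave -0.07 and -0.65 in CD45RBhi (0.792 and 0.0615). Whether these differences set the memory groups apart was tested directly, and 0 of 13 passed with or without the replicate block.

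Of 8 LXR receptors and targets, 2 rose and 2 fell in CD45RBhi, and 3 rose and 2 fell in CD45RBlo. The shares in CD45RBhi, 25% each way, are near the 22.3% and 19.1% of all genes tested. The third that rose in CD45RBlo was Rxra, the partner receptor (1.03, adjusted p = 0.0183). Nr1h2, which encodes LXR beta, averaged 145 ± 5.27 CPM in naive cells, 185 ± 25.5 in CD45RBhi and 182 ± 12.8 in CD45RBlo libraries (0.35 and 0.33, adjusted p = 0.0153 and 0.0202). Nr1h3, which encodes LXR alpha, was low at 2.47 ± 1.27 CPM and fell to 0.848 ± 0.348 and 1.01 ± 0.299. Mylip, an LXR target and ubiquitin ligase, rose by 0.56 and 0.78 (adjusted p = 0.000218 and 1.27e-05). Lpcat3, another LXR target, fell by 0.60 and 0.70 (0.000218 and 4.91e-05).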
